A study of Mus musculus with 8 samples.

Results

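The genes of translation initiation were described in mouse sensory neurons as every deposited gene row whose symbol starts with Eif, apart from the sex-linked pair Eif2s3x and Eif2s3y, together with the kinases and the scaffold that signal to these factors, Mknk1, Mknk2, Mtor and Rptor. The rule used symbols alone and gave 60 of 22609 genes. It includes 4 genes under the older symbols Eif2c1 to Eif2c4, which encode the Argonaute proteins of small RNA silencing and are no initiation factors. The neurons came from naive C57BL/6J mice, females in the estrous phase and males, with no treatment beyond the labelling, and 4 libraries were made for each sex. The fluorescent lectin WGA-488 had been injected into hind paw skin and thigh muscle, was carried back along the axons to the dorsal root ganglia (DRG) of the lumbar segments, and the labelled cells were collected by fluorescence-activated cell sorting. Per the study's methods, a library drew on the ganglia of segments L3 to L5 of both sides, as many as one animal has, and the labels do not say whether animals were pooled. RNA was copied from its poly(A) tail and amplified by PCR with the SMART-seq2 protocol, and gene reads were counted.

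Translation starts when a cap-binding complex prepares the mRNA and a small ribosomal subunit, loaded with initiator tRNA, scans to the start codon. The eIF4F complex (eIF4E at the cap, the scaffold eIF4G and the helicase eIF4A) does the first, and eIF1, eIF1A, eIF2, eIF3 and eIF5 act on the ribosomal subunit. The pathway is controlled at eIF4E, through 4E-binding proteins under mTORC1 and through phosphorylation by the MNK kinases, and at eIF2, whose phosphorylation by stress kinases blocks its recycling by eIF2B. In sensory neurons, both the MNK to eIF4E step and eIF2 phosphorylation are known for their part in nociceptor sensitization, and part of the translation takes place in the axons.

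The libraries held 4.80 to 7.33 M gene reads (M, 1e6 reads), so that 3 reads, taken as the floor of detection, correspond to 0.409 to 0.625 reads per 1e6 gene reads (CPM). Female replicate 4 stood apart from the other females, with a chi-square per degree of freedom of 30.1 to 44.9 against them, where all other pairs within a sex gave at most 12.1. All 14 neuronal markers were read in every library, with summed levels of 27298 to 38847 CPM in females and 28289 to 30917 CPM in males. The 12 markers of satellite glia and Schwann cells were also read in every library, at 11740 to 15167 CPM in females and 5581 to 11323 CPM in males, and 4 of them were higher in females at an unadjusted p under 0.05, where 2 neuronal markers were higher in females and 1 in males. Fibroblast markers summed to 99.6 to 149.9 CPM in females and 44.6 to 84.5 CPM in males, macrophage markers to 7.15 to 19.7 CPM and 2.73 to 8.75 CPM, and all 4 globin genes were at 0. Endothelial markers summed to 13.6 CPM in female replicate 4 and 1.82 to 4.44 CPM in the other 7 libraries. Of those that passed the expression filter, 4 of 5 fibroblast and 2 of 3 macrophage markers were higher in females at this p. Of all genes tested, 4.44% were higher in females and 2.67% higher in males at this p. In such bulk libraries, fewer cells of a type and less RNA per cell cannot be told apart, and the part of these marker differences in the results below was not tested except where a value is given. The labels do not say that the samples of a sex came from separate animals, and p-values then measure only the spread between these samples.

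The summed level of the initiation factor genes varied little over the libraries, while single members varied more. Of the 60 genes, 59 were read in all 8 libraries and passed the expression filter. The exception was Eif4e1b, which encodes an oocyte form of eIF4E and had no read in any library, which allows at most 0.409 CPM in the deepest library and 0.625 CPM in the shallowest. Together the members took 0.617% to 0.649% of the gene reads of a library, which is 6289 ± 120.4 CPM (SD, n = 4) in females and 6426 ± 90.3 CPM (SD, n = 4) in males. By mean level, 52 members were at or above 10 CPM and 21 at or above 100 CPM. The plot of each gene in the 8 libraries places Eif4g2, Eif5a, Eif4h and Eif4a2 at the top, with means of 681, 501, 478 and 477 CPM over the 8 libraries, and the 4E-binding proteins and most Argonautes at the bottom.

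**Figure D1:**
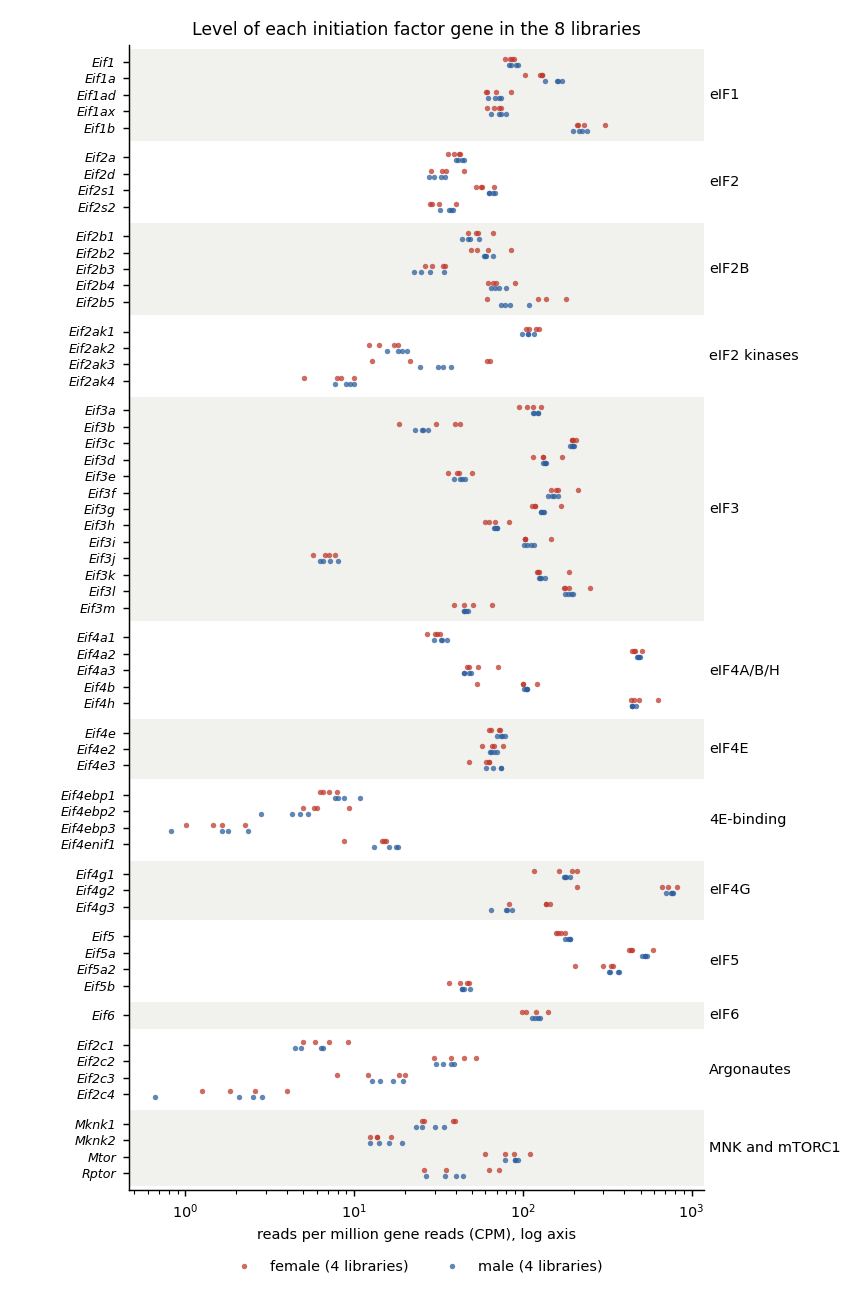
Level of the 59 detected members in each library in CPM on a log axis, 4 female libraries in red and 4 male libraries in blue, grouped by complex. The male points of most genes lie closer together than the female points, and the 2 sexes overlap for every member except Eif1a.

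No member passed an adjusted p of 0.05 between the sexes in edgeR's quasi-likelihood test with Benjamini-Hochberg adjustment, where 0.0879% of the 12518 genes tested did (11 genes). At an unadjusted p under 0.05, Eif4g3 was higher in females, 1 of 59 members against a background of 4.44% of all genes, and Eif1a was higher in males, again 1 of 59 against 2.67%. With a fold change over 1.5 as well, Eif4g3 stood alone, against a background of 2.63% for genes higher in females and 1.02% for genes higher in males. Each of these single members is 1.69% of the 59, below the share of all genes under the same rule. The median log2 fold change, female over male, was -0.03 over the members and 0.0034 over all genes tested, and 24 members were above 0 and 35 below.

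The intervals set a limit on what could have been missed. For 39 of 59 members the 95% interval of the fold change lay inside 1.5-fold in both directions, where 46.4% of all genes tested did, and for 52 it lay inside 2-fold. Standard errors of the members ranged from 0.09 to 0.45 on the log2 scale, with a median of 0.14 against 0.20 for all genes. The spread among libraries of 1 sex was larger in females: the median SD of log2 levels over the members was 0.11 in males and 0.24 in females, and over all genes tested it was 0.17 and 0.29. The members were also read at higher levels, with a median of 66.7 CPM against 25.6 CPM for all genes tested. The part of this level in the narrower intervals and spreads was not tested.

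**Figure D2:**
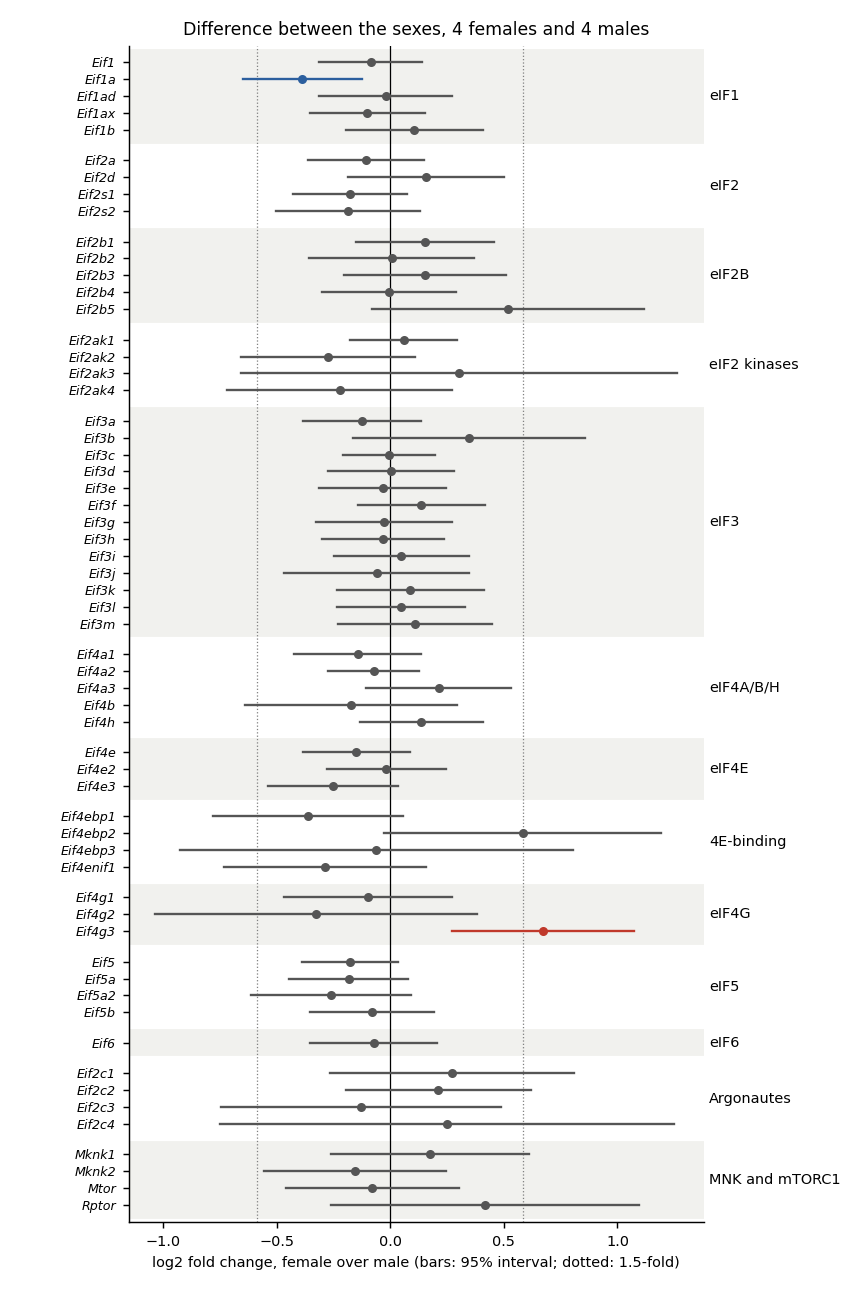
Log2 fold change, female over male, of the 59 members tested, with 95% intervals from edgeR as bars and 1.5-fold in either direction as dotted lines. Only the intervals of Eif4g3 (red, higher in females) and Eif1a (blue, higher in males) leave out 0.

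Among the eIF1 and eIF1A genes, which help the small subunit to scan and to select the start codon, Eif1a was the one gene whose levels did not overlap between the sexes. Eif1a, one of the genes of eIF1A (mm9 chr18:46757358-46769879 (+ strand)), was read at 130.3, 130.2, 103 and 126 CPM in females 1 to 4 and 171, 160.1, 136 and 163 CPM in males 1 to 4. The lowest male library lay above the highest female library, by a small margin, and 5.52% of all genes tested did not overlap in one direction or the other. The means were 122 ± 13.1 CPM (SD, n = 4) in females and 158 ± 15.02 CPM (SD, n = 4) in males. The log2 fold change was -0.39 ± 0.12 (SE), with an unadjusted p of 0.0082 and an adjusted p of 0.637 (edgeR, Benjamini-Hochberg). It stayed under an unadjusted p of 0.05 with each library left out in turn. With a score of the glial markers as a covariate it was -0.24 with an unadjusted p of 0.187, but that score itself ran from 7.89 to 8.06 in females and from 6.96 to 7.82 in males, so that sex and glial signal cannot be told apart in this fit.

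The X-linked copy Eif1ax, also a gene of eIF1A, did not share this difference at the threshold, its log2 fold change being -0.10 ± 0.12 (SE) at an unadjusted p of 0.403. Whether the difference of Eif1a exceeds that of Eif1ax was not tested. The most abundant gene of the group by CPM was Eif1b, a close relative of the start codon selector Eif1, at 213, 211, 229.6 and 309 CPM in females 1 to 4 and 199, 239.9, 226 and 217 CPM in males 1 to 4. Female replicate 4 was the highest, and the other 7 libraries lay between 199 and 239.9 CPM. Eif1 itself was read at 86.1, 83.5, 78.96 and 88.8 CPM in females 1 to 4 and 93.7, 91.1, 82.6 and 85.5 CPM in males 1 to 4, with overlapping sexes. Per kb of transcript, Eif1b exceeded Eif1 by 3.06-fold to 5.01-fold over the 8 libraries. However, only 41.9% of the 50-base windows of the Eif1 transcript occur once in the genome, against 99.2% for Eif1b. Per kb of sequence unique by exact match, the ratio was 1.29-fold to 2.12-fold, above 1 in all 8 libraries. Near copies of Eif1 were not considered. Eif1ad, which resembles eIF1A, was read at 60.2 to 85.1 CPM and had a log2 fold change of -0.02 ± 0.13 (SE).

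The eIF2 genes, which deliver initiator tRNA, were among the less abundant factors. Eif2s1, the alpha subunit that carries the stress-regulated phosphorylation site, was read at 53.1, 57.4, 56.2 and 67.7 CPM in females 1 to 4 and 66.9, 63.3, 62.9 and 68.3 CPM in males 1 to 4. The sexes overlapped through female replicate 4 alone, and the log2 fold change was -0.18 ± 0.11 (SE) with an unadjusted p of 0.15. Eif2s2, the beta subunit, and the tRNA-delivering factors Eif2a and Eif2d, which are named for eIF2 but are not its subunits, ranged from 27.8 to 44.8 CPM over all libraries. Their log2 fold changes were -0.19 ± 0.14 (SE) for Eif2s2, -0.11 ± 0.12 (SE) for Eif2a and 0.16 ± 0.16 (SE) for Eif2d, none at an unadjusted p under 0.05. Per kb of unique transcript sequence, the 4 genes lay close together, between 17.6 and 22.4 CPM.

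The 5 subunit genes of eIF2B, the exchange factor that recharges eIF2 with GTP, were read at mean levels of 29.2 to 105.9 CPM. The highest was Eif2b5, the catalytic epsilon subunit (mm9 chr16:20498890-20510028 (+ strand)), at 61.04, 124, 137 and 180.1 CPM in females 1 to 4 and 83.8, 78.4, 74.6 and 108 CPM in males 1 to 4. Females 2 to 4 were above all males, and female replicate 1 was below all of them. The means were 125 ± 49.2 CPM (SD, n = 4) in females and 86.3 ± 15.2 CPM (SD, n = 4) in males. With all libraries the log2 fold change was 0.52 ± 0.27 (SE) and the unadjusted p 0.082. The other 4 subunits, Eif2b1 to Eif2b4, had log2 fold changes between -0.0050 and 0.15, and in none of them were females 2 to 4 all above the males. Per kb of unique sequence, Eif2b4, Eif2b2 and Eif2b5 were at 41.3, 39.1 and 33.7 CPM, and Eif2b1 and Eif2b3 at 25.97 and 19.1 CPM.

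Among the 4 kinases that phosphorylate eIF2, Eif2ak1 (HRI, known as the haem-regulated kinase) was the most abundant. It was read at 124, 119, 105 and 108 CPM in females 1 to 4 and 99.5, 108, 107 and 117 CPM in males 1 to 4, with overlapping sexes and a log2 fold change of 0.06 ± 0.11 (SE). Eif2ak4 (GCN2, activated by uncharged tRNA) was the least, at 7.97, 8.33, 10 and 5.05 CPM in females 1 to 4 and 9.41, 9.95, 8.92 and 7.69 CPM in males 1 to 4. Per kb of transcript, Eif2ak1 exceeded Eif2ak4 by 12.5-fold to 25.4-fold, with Eif2ak1 higher in 8 of 8 libraries and no difference of the ratio between the sexes at the threshold (exact permutation p = 0.314). Eif2ak2 (PKR, activated by double-stranded RNA) lay between 12.3 and 20.6 CPM. Eif2ak3 (PERK, the kinase of endoplasmic reticulum stress) had the widest spread of log2 levels of the members among females. It was read at 21.6, 61.8, 63.5 and 12.8 CPM in females 1 to 4 and 31.7, 24.7, 37.6 and 33.7 CPM in males 1 to 4. Females 2 and 3 lay above all males and females 1 and 4 below them, the log2 fold change was 0.30 ± 0.43 (SE), and its sign turned with limma-voom (-0.03) and without female replicate 3 (-0.02).

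The 13 eIF3 genes, whose product is the large platform between the small subunit and eIF4G, formed the largest group. Their summed level was 1326, 1297, 1294 and 1674 CPM in females 1 to 4 and 1355, 1339, 1327 and 1378 CPM in males 1 to 4. The 7 other libraries lay within a narrow band, and female replicate 4 was above them. Log2 fold changes of the subunits ran from -0.12 for Eif3a, the largest core subunit, to 0.35 for Eif3b, a core subunit that binds it, with a median of 0.0028 and none at an unadjusted p under 0.05. Eif3c, another core subunit and the most abundant by CPM, was read at 198, 195, 206 and 195 CPM in females 1 to 4 and 199, 195, 191 and 200.4 CPM in males 1 to 4. It had the smallest spread within the sexes of the 13, its log2 fold change being -0.01 ± 0.09 (SE) within a 95% interval of -0.21 to 0.20.

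Per kb of unique transcript sequence, the eIF3 subunits ranged over more than an order of magnitude. Eif3k, Eif3g, Eif3l and Eif3i were at 176, 123, 104 and 102 CPM, Eif3h, Eif3c and Eif3d at 78.2, 76.5 and 72.5 CPM, and Eif3f, Eif3m and Eif3e at 64.3, 63.7 and 39.1 CPM. The lowest were Eif3a at 25.1, Eif3b at 10.1 and Eif3j at 7.59 CPM. Eif3j, a loosely bound subunit, is the least certain of these, since only 16.8% of its 50-base windows occur once in the genome, and reads that align to several places were not counted. Eif3b differed from its partners in its pattern over libraries and was read at 18.4, 39.9, 30.6 and 42.3 CPM in females 1 to 4 and 27.6, 23.02, 25.8 and 25.3 CPM in males 1 to 4. Females 2 to 4 were above all males and female replicate 1 was below them, as for Eif2b5.

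The helicase eIF4A, which unwinds the mRNA, was read mainly from Eif4a2, and its helpers mainly from Eif4h. Eif4a2 was read at 460.1, 447, 457 and 511 CPM in females 1 to 4 and 498, 487, 481.5 and 477 CPM in males 1 to 4. The sexes overlapped, and the log2 fold change was -0.07 ± 0.09 (SE) with a 95% interval of -0.27 to 0.13. Eif4a1, the form usually dominant in dividing cells, was read at 32.3, 30.2, 31.2 and 26.95 CPM in females 1 to 4 and 35.6, 32.8, 29.7 and 33.3 CPM in males 1 to 4. Per kb of transcript, Eif4a2 exceeded Eif4a1 by 14-fold to 19-fold. Only 19.7% of the windows of Eif4a1 and 59.7% of those of Eif4a2 are unique in the genome, and per kb of unique sequence the ratio was 4.61-fold to 6.24-fold, with Eif4a2 higher in 8 of 8 libraries on both scales. The ratio did not differ between the sexes at the threshold (exact permutation p = 0.629). Eif4a3, a helicase of the exon junction complex and no part of eIF4F, was read at 44.6 to 71.1 CPM, highest in female replicate 4. Its log2 fold change was 0.21 ± 0.14 (SE), falling to 0.072 without that library.

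Both helicase helpers had the value farthest from the rest in female replicate 4, though neither passed Dixon's outlier criterion there. Eif4h was read at 455, 440.1, 489 and 633 CPM in females 1 to 4 and 446, 472, 446 and 445 CPM in males 1 to 4. Female replicate 4 was the highest, and the log2 fold change was 0.14 ± 0.12 (SE). Eif4b, the other RNA-binding helper, showed the reverse pattern and was read at 100.1, 101, 122 and 53.2 CPM in females 1 to 4 and 105, 106.5, 105 and 102 CPM in males 1 to 4. Female replicate 4 was the lowest of all libraries, and the 7 others lay between 100.1 and 122 CPM.

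Eif4e, the cap-binding subunit of eIF4F, was read at 65.2, 71.8, 62.7 and 72.9 CPM in females 1 to 4 and 78.3, 69.96, 74.8 and 74.99 CPM in males 1 to 4. Eif4e2, a related cap-binding protein that represses translation, was read at 76.9, 67.3, 65.4 and 57.4 CPM in females 1 to 4 and 64.4, 67.7, 64.6 and 70.1 CPM in males 1 to 4. The ratio of Eif4e2 to Eif4e per kb of transcript was 0.791-fold to 1.18-fold over the libraries, and 0.502-fold to 0.752-fold per kb of unique sequence, since 63.2% of the Eif4e windows are unique. Eif4e3, another cap-binding relative, lay between 48.1 and 74.8 CPM. Log2 fold changes were -0.15 ± 0.11 (SE) for Eif4e, -0.02 ± 0.12 (SE) for Eif4e2 and -0.25 ± 0.13 (SE) for Eif4e3, none at an unadjusted p under 0.05.

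The proteins that hold eIF4E back were read at low levels, and here the balance of a pair differed between the sexes before correction. Eif4ebp1, the best known target of mTORC1 among them, was read at 6.32, 6.59, 7.92 and 7.08 CPM in females 1 to 4 and 8.73, 7.72, 10.9 and 7.99 CPM in males 1 to 4. Eif4ebp2, the form known as the main one in brain, was read at 5.77, 9.37, 5.00 and 6.06 CPM in females 1 to 4 and 5.32, 2.82, 4.79 and 4.29 CPM in males 1 to 4. The log2 ratio of Eif4ebp2 to Eif4ebp1 per kb of transcript was -0.99 ± 0.48 (SD) in females and -1.91 ± 0.32 (SD) in males. All females lay above all males, the third female narrowly, and Eif4ebp1 was the higher gene per kb in 8 of 8 libraries. Female minus male, the ratio differed by 0.92 log2 units, with an exact two-sided permutation p of 0.0286, the smallest that the 70 labelings of these libraries can give, and 0.229 after Benjamini-Hochberg adjustment over the 8 pairs compared. With a library left out the difference ran from 0.715 to 1.10, and its unadjusted exact p was 0.0571 without female replicate 2 or any male library. It was 0.0286 without each of the other females, which is also the smallest that the remaining libraries can give. With the replicate numbers as pairs the exact p was 0.125, the smallest that 4 pairs can give. The counts behind it were 38 to 66 reads of Eif4ebp1 and 19 to 54 reads of Eif4ebp2 in a library. Neither gene alone passed an unadjusted p of 0.05, with log2 fold changes of -0.36 ± 0.19 (SE) and 0.58 ± 0.28 (SE). Eif4enif1, which carries eIF4E into the nucleus, was the most abundant of the group at 15.4, 15.1, 8.75 and 14.7 CPM in females 1 to 4 and 18.1, 17.8, 16.02 and 13.2 CPM in males 1 to 4. Eif4ebp3 was read from only 6 to 16 reads in a library, and 67.3% of its exon bases are shared with Ankhd1 on the same strand, so its level is uncertain.

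The scaffold genes showed both the largest difference between the sexes and the largest departure of a single library. Eif4g2 (DAP5), which lacks the eIF4E-binding part and serves translation without the cap, was the most abundant member, at 825, 728, 667 and 211 CPM in females 1 to 4 and 779, 757, 711 and 769 CPM in males 1 to 4. Female replicate 4 was the lowest, while the 7 others lay between 667 and 825 CPM. Eif4g1, the main scaffold of eIF4F, was read at 209.7, 195, 164 and 116 CPM in females 1 to 4 and 178, 175, 179 and 192 CPM in males 1 to 4, again with female replicate 4 the lowest. Eif4g3, its close relative (mm9 chr4:137548937-137764423 (+ strand)), was read at 82.5, 137, 145 and 138 CPM in females 1 to 4 and 64.8, 80.5, 86.03 and 79.3 CPM in males 1 to 4. Females 2 to 4 were above all males, and female replicate 1 fell inside the male range. The means were 126 ± 28.9 CPM (SD, n = 4) in females and 77.7 ± 9.06 CPM (SD, n = 4) in males. The log2 fold change of Eif4g3 was 0.67 ± 0.18 (SE), a 1.6-fold higher level in females, with an unadjusted p of 0.00356 and an adjusted p of 0.561 (edgeR, Benjamini-Hochberg). With each library left out in turn the unadjusted p stayed under 0.05, and without female replicate 1 the log2 fold change was 0.84 and the adjusted p 0.0175 (edgeR, Benjamini-Hochberg), in a fit where 0.668% of all genes passed the adjusted threshold. With the glial score as a covariate it was 0.39 with an unadjusted p of 0.147.

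The balance of Eif4g3 against its paralogue was compared as well. The log2 ratio of Eif4g3 to Eif4g1 per kb of transcript was -0.45 ± 0.67 (SD) in females and -1.23 ± 0.18 (SD) in males, and it differed by 0.78 log2 units with an exact permutation p of 0.114. Without female replicate 1 the difference was 1.08 with an exact permutation p of 0.0286, the smallest that the remaining libraries can give. Without female replicate 4 it was 0.548 with an exact permutation p of 0.171. Female replicate 1 had a ratio within the male range, and in female replicate 4 alone was Eif4g3 the higher gene.

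The eIF5 group, which triggers GTP hydrolysis and joins the ribosomal subunits, had log2 fold changes below 0 in all 4 members, with none of them past the test, and that of Eif5b turned sign after removal of the length trend. Eif5a, whose product carries the amino acid hypusine and also serves elongation, had the highest level of all members per kb of unique sequence, 441 CPM. It was read at 435, 424, 443 and 589 CPM in females 1 to 4 and 548, 528, 508 and 531 CPM in males 1 to 4. Females 1 to 3 lay below all males, and female replicate 4 above them. Eif5a2, the tissue-restricted relative of Eif5a, was read at 342, 332, 299 and 203 CPM in females 1 to 4 and 326, 372, 365 and 327 CPM in males 1 to 4. Eif5, the activator of the eIF2 GTPase, was read at 158 to 191 CPM, and Eif5b, the GTPase of subunit joining, at 36.5 to 48.7 CPM. Log2 fold changes were -0.18 ± 0.12 (SE) for Eif5a, -0.26 ± 0.16 (SE) for Eif5a2, -0.18 ± 0.10 (SE) for Eif5 and -0.08 ± 0.12 (SE) for Eif5b.

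The summed level of the 4 eIF5 genes was 987, 982, 939 and 998 CPM in females 1 to 4 and 1103, 1133, 1093 and 1097 CPM in males 1 to 4. The female sums did not overlap the male sums, at 976 ± 25.8 CPM (SD, n = 4) against 1107 ± 18.1 CPM (SD, n = 4), and this was the only one of the 13 groups for which that held. The sum was looked at after the values of the genes were known and was not tested. In female replicate 4, Eif5a was the highest and Eif5a2 the lowest of the females, so its sum hides opposite departures of the pair. The ratio of Eif5a2 to Eif5a per kb of transcript was 0.099-fold to 0.226-fold, lowest in that library, and did not differ between the sexes at the threshold (exact permutation p = 0.943).

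Eif6, which keeps the large subunit from joining too early, was read at 104, 98.6, 121 and 140.5 CPM in females 1 to 4 and 117, 126, 113 and 124 CPM in males 1 to 4, with overlapping sexes and a log2 fold change of -0.07 ± 0.13 (SE). The Argonaute genes were low, and of them Eif2c2 (Ago2, the slicing Argonaute) led at 44.96, 52.9, 37.7 and 29.6 CPM in females 1 to 4 and 39.3, 30.4, 37.6 and 33.6 CPM in males 1 to 4. Eif2c3, Eif2c1 and Eif2c4 followed at mean levels of 15.3, 6.19 and 2.23 CPM, and Eif2c4 was read from 4 to 29 reads in a library. Their log2 fold changes ran from -0.13 to 0.27, none at an unadjusted p under 0.05.

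Of the signalling genes, Mtor, the kinase of mTORC1, was the most abundant, at 110.0, 88.8, 78.7 and 59.6 CPM in females 1 to 4 and 93.5, 89.9, 89.7 and 78.5 CPM in males 1 to 4. Rptor, which presents substrates such as the 4E-binding proteins to it (mm9 chr11:119464219-119760890 (+ strand)), was read at 25.8, 63.3, 72.3 and 35.2 CPM in females 1 to 4 and 26.7, 34.5, 39.96 and 44.2 CPM in males 1 to 4. Females 2 and 3 lay above all males, female replicate 1 below all of them and female replicate 4 among them, and the log2 fold change was 0.42 ± 0.31 (SE) with an unadjusted p of 0.201. Mknk1, one of the MNK kinases that phosphorylate eIF4E, was read at 25.98, 25.3, 38.5 and 39.8 CPM in females 1 to 4 and 23.2, 34.2, 30.4 and 25.3 CPM in males 1 to 4. Mknk2, the other, was read at 13.7, 16.5, 12.5 and 13.6 CPM in females 1 to 4 and 19.4, 16.04, 14.04 and 12.4 CPM in males 1 to 4. Mknk1 was the higher of the pair per kb in 8 of 8 libraries, by 1.34-fold to 3.44-fold, with no difference between the sexes at the threshold (exact permutation p = 0.371). Neither kinase gene differed between the sexes at an unadjusted p of 0.05.

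**Figure D3:**
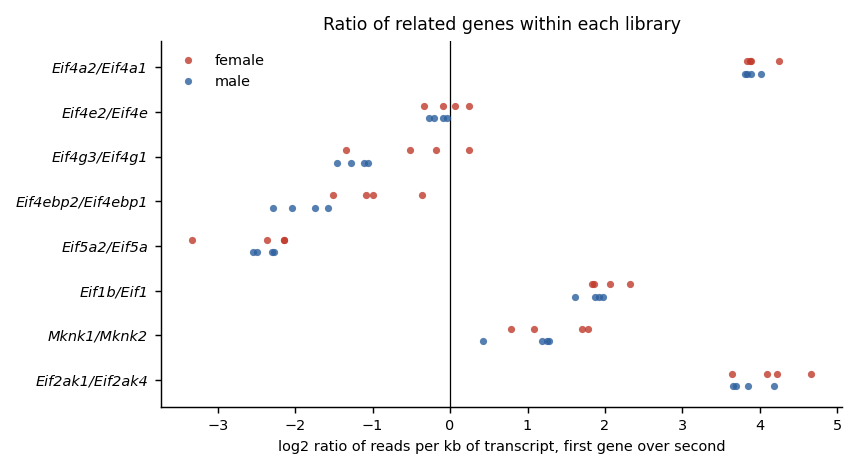
Log2 ratio of the levels per kb of transcript of 8 pairs of related genes in each library, females in red and males in blue, with 0 as equal levels. Eif4a2 and Eif2ak1 lie far above their partners in all 8 libraries, and the female points of Eif4ebp2 over Eif4ebp1 lie to the right of all male points.

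Female replicate 1 stood below the other females for several members and above them for others. In this library Eif2b5, Rptor and Eif3b were -1.24, -1.06 and -0.997 log2 units from the mean of females 2 to 4, and Eif2ak3 and Eif4g3 -0.77 and -0.76. On the high side, Eif2c4, Eif4g2, Eif2c3 and Mtor were 0.94, 0.82, 0.70 and 0.55 log2 units from that mean. Without female replicate 1, 4 members were higher in females at an unadjusted p under 0.05, where 5.61% of 12573 genes were, which are Eif2b5, Eif3b, Eif4g3 and Rptor, and Eif1a was higher in males, where 3.97% were. Their log2 fold changes were then 0.75 for Eif2b5, 0.55 for Eif3b, 0.84 for Eif4g3 and 0.64 for Rptor. Other choices lowered them, with 0.295 for Eif2b5 and 0.20 for Eif3b without female replicate 4, and 0.164 for Rptor without female replicate 3 and 0.001 with the glial score as a covariate. The share of all genes called also grew without this library, from 7.11% to 9.58% in either direction, and 8.47% of the members were called.

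**Figure D4:**
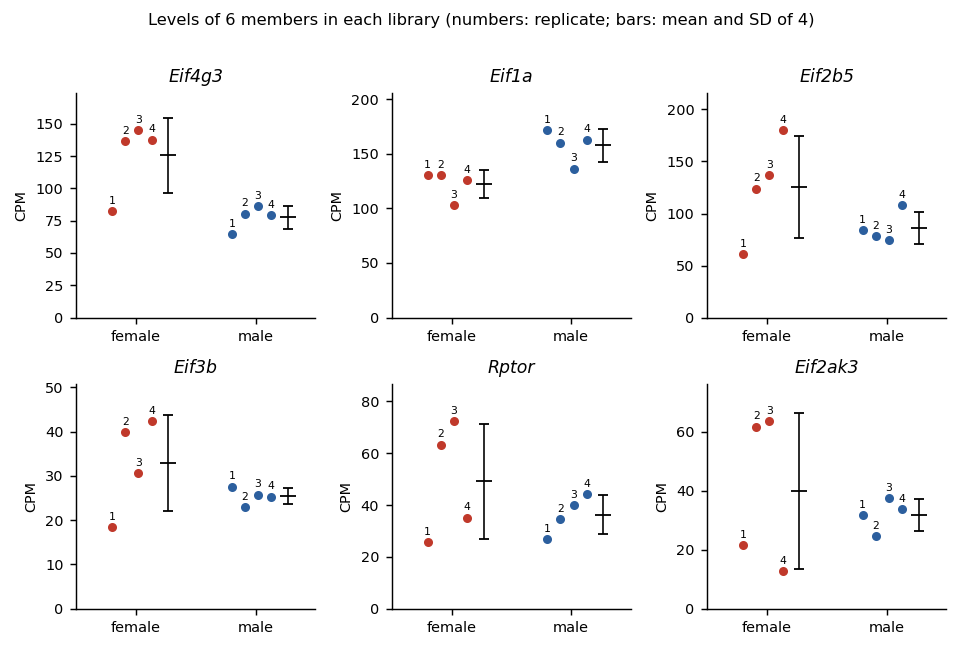
CPM of Eif4g3, Eif1a, Eif2b5, Eif3b, Rptor and Eif2ak3 in each library, with the replicate number above each point and the mean and SD of 4 libraries beside each group; each axis starts at 0. Female replicate 1 lies below all males for Eif2b5, Eif3b, Rptor and Eif2ak3 and among them for Eif4g3, and all females lie below all males for Eif1a.

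The start regions of the 4 members that were higher in females in the fit without female replicate 1 are shown. All 4 had their lowest female level in that library, which is part of how they were selected. Other members, such as Eif2a, Eif2s1 and Eif3f, also had their lowest female level there. Each sequence runs from 100 bases before the RefSeq start of the gene to 15 bases after it, in GRCm38.p6 coordinates, and capitals mark a C followed by 4 bases that are each C or T, beginning within 5 bases of the start, the kind of pyrimidine run known at the 5′ end of mRNAs whose translation mTORC1 controls.
Eif2b5, chr16:20498717-20498831 (+ strand): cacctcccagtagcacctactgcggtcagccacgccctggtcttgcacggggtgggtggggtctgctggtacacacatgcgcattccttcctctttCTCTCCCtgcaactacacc
Eif3b, chr5:140419205-140419319 (+ strand): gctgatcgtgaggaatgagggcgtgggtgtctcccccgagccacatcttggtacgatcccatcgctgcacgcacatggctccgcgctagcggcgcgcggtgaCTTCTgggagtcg
Eif4g3, chr4:137993355-137993469 (+ strand): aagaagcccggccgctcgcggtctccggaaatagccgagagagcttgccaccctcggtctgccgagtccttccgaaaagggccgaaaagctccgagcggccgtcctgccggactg
Rptor, chr11:119602805-119602919 (+ strand): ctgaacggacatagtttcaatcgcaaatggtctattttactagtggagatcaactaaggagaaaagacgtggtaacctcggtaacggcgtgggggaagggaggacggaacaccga
The run was found in Eif2b5 and Eif3b and not in Eif4g3 and Rptor, so the 4 genes have no such run in common. Of the 60 members, 48 matched a RefSeq start region by symbol or older symbol, and 29.2% of these held the run, against 19.7% of the start regions of 8912 genes tested. In the 250 bases before the start, searched on both strands, GGGCGG (the GC box) was in 70.8% of the member regions and 60.4% of those of tested genes, CCGGAAG (the core recognized by ETS factors) in 25% and 13.5%, and TATAAA in 8.33% and 6.07%. Over all 27025 RefSeq regions the shares were 32.9% for GGGCGG, 7.05% for CCGGAAG and 13.0% for TATAAA. For these 4 genes, the 250 bases searched held TATAAA in Eif3b and no other of the 3 motifs. None of the 3 motifs lies in the 100 bases before the start that are printed.

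Female replicate 4 departed from the other females along the length of the transcripts. Of the 22 members with a transcript under 2 kb, 19 were above the mean of females 1 to 3 in this library, with a median difference of 0.43 log2 units, and of the 19 members of 2 to 4 kb, 14 were, with a median of 0.15. Of the 18 members over 4 kb, 3 were above it, with a median of -0.44. Spearman's rho between this difference and transcript length was -0.624 over the 59 members and -0.627 over 12374 genes, given as a description, since all points share 1 library and genes are not replicates. The largest departures were -1.80 log2 units for Eif4g2, -1.74 for Eif2ak3, -1.02 for Eif2c3 and -1.002 for Eif4b on the low side, and 0.83 for Eif2b5 on the high side.

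**Figure D5:**
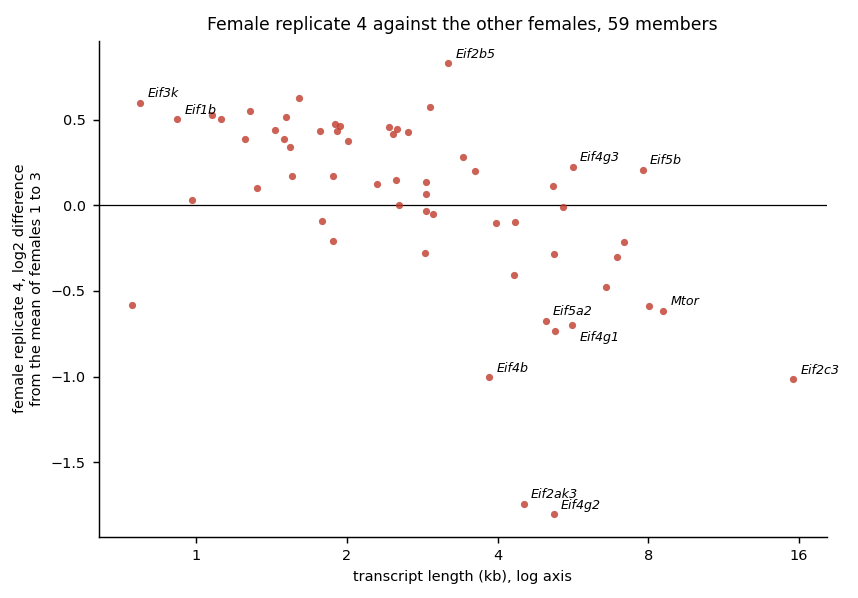
Log2 difference of female replicate 4 from the mean of females 1 to 3 for the 59 members, against transcript length in kb on a log axis. Short transcripts lie mostly above 0 and long ones mostly below, and Eif4g2 and Eif2ak3 lie lowest.

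Without female replicate 4 the count of members at an unadjusted p under 0.05 was 8. Of these, 2 were higher in females, Eif4g3 and Eif2c2, where 5.70% of 12724 genes were, and 6 were higher in males, Eif1a, Eif2s1, Eif3g, Eif4e3, Eif5 and Eif5a, where 5.72% were. Of the added members, Eif2c2 had the largest log2 fold change, 0.34, and Eif5a, at -0.30, the lowest adjusted p, 0.180 (edgeR, Benjamini-Hochberg). In this fit 13.6% of the members were called in either direction, against 11.4% of all genes, and none passed the adjusted threshold. With the trend with transcript length removed from each library instead, 2 members were higher in females, Eif4g3 and Eif2c2, where 5.74% of all genes were, and 3 were higher in males, Eif1a, Eif4e3 and Eif5a, where 5.06% were.

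Genes that act with the members were followed in 4 lists of 70 genes in all, each of which passed the expression filter, and none of them passed the adjusted threshold in edgeR. At an unadjusted p under 0.05 there were 4, which is 5.71% of the 70 against 7.11% of all genes tested. DESeq2 with Benjamini-Hochberg adjustment called 1 of them, Ddit4, at an adjusted p of 0.0248, where it called 0.383% of all genes. Among 20 genes of the mTORC1 and S6 kinase arm, 1 was higher in females and 1 in males at an unadjusted p under 0.05, where 4.44% and 2.67% of all genes were. Ddit4 (REDD1), a stress-induced inhibitor of mTORC1, was read at 36.2, 25.5, 38.5 and 31.8 CPM in females 1 to 4 and 14.9, 21.4, 20.97 and 18.8 CPM in males 1 to 4. All females lay above all males, by a log2 fold change of 0.78 ± 0.18 (SE) at an unadjusted p of 0.00108. Rheb, the GTPase that activates mTORC1, differed by -0.27 ± 0.11 (SE) log2 units at an unadjusted p of 0.0382, and with a library left out the log2 fold change stayed between -0.352 and -0.205, with a p over 0.05 in all of these fits except that without female replicate 4 (-0.352, p of 0.000825). Of the others, Rraga, the GTPase that brings mTORC1 to the lysosome, was the most abundant at a mean of 263 CPM, with a log2 fold change of 0.01 ± 0.12 (SE). The list also holds Pdk1, the symbol of a pyruvate dehydrogenase kinase rather than of the kinase upstream of Akt.

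None of the 10 MAP kinase genes upstream of MNK reached an unadjusted p of 0.05, and the most abundant, Mapk3 (ERK1), was at 482 CPM with a log2 fold change of 0.07 ± 0.11 (SE). Of 24 partners at the cap, the poly(A) tail and the ribosome, 18 had log2 fold changes below 0, and the median over the 24 was -0.12, where 49.3% of all genes tested were below 0 with a median of 0.0034. Without female replicate 4, 13 were below 0 and the median was -0.017. In this list 1 gene was lower in females at an unadjusted p under 0.05, where 2.67% of all genes were, Paip1, which joins the poly(A)-binding protein to eIF4A and eIF3, at 87.7, 85.03, 55.2 and 75.97 CPM in females 1 to 4 and 109.6, 94.9, 95.9 and 97.8 CPM in males 1 to 4. All females lay below all males, by a log2 fold change of -0.41 ± 0.15 (SE) at an unadjusted p of 0.0188. It was over 0.05 without male replicate 1 (0.0582, log2 fold change -0.351) and with the glial score as a covariate (0.229), where the log2 fold change of Paip1 was -0.27. Cyfip2, a partner of the RNA-binding protein FMRP, was the most abundant of this list at 695 CPM, with a log2 fold change of -0.36 ± 0.24 (SE) that was -0.141 without female replicate 4, the lowest library. In the ATF4 arm of the stress response, downstream of eIF2 phosphorylation, 1 of 16 genes was higher in females at this p, where 4.44% of all genes were, the lipoprotein receptor Vldlr, at 28.9, 33.1, 32.1 and 25.1 CPM in females 1 to 4 and 8.73, 21.2, 18.5 and 17.9 CPM in males 1 to 4. The log2 fold change of Vldlr was 0.83 ± 0.24 (SE) with an unadjusted p of 0.00581, and 0.22 with an unadjusted p of 0.385 with the glial score as a covariate. Asns, the asparagine synthetase gene and the most abundant of this list, was at 322 CPM with a log2 fold change of -0.06 ± 0.13 (SE).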

How the data were processed

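RNA of sorted DRG neurons was sequenced as single reads of 50 bases. Per the labels and the methods, the authors aligned reads to mm9 with TopHat2 and counted them per gene with HTSeq. The deposited values are raw read counts with no normalization, and reads with several alignments are in a summary line of their own. Tool versions, the annotation and the strand setting are not given in the sources used here, so overlapping genes may share reads. The 5 summary lines were left out. CPM divides a count by the sum over genes.

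Counts of the 12518 genes that passed the default expression filter were compared between sexes in edgeR 4.0.16 (quasi-likelihood fit, R 4.3.3, TMM factors, sex as the only term). The common biological coefficient of variation was 0.205. Benjamini-Hochberg adjustment ran over all these genes. Log2 fold changes are female over male. The code was tested on simulated data. Paralogue ratios used 0.5 reads as pseudocount and a two-sided exact permutation test, and library differences used log2(CPM + 0.5). Coordinates, transcript lengths and the share of 50-base windows found once in the genome came from NCBIM37 (mm9) with GENCODE M1, using the transcript with the longest coding sequence. Windows were compared by exact match, so near copies did not count, and their effect on the ratios was not tested. Start regions came from RefSeq (GRCm38.p6). The 95% intervals rest on the fit's standard errors. Reads carry no molecular identifiers, so the detection floor covers counting error only.

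The fit was repeated with DESeq2 1.42.0, with limma 3.58.1 (voom), and with RLE factors, library size alone, other filters, removal of the length trend, a glial score, a replicate block and each library left out. The rule for named genes took each member at an unadjusted p under 0.05, the most abundant member of each complex (eIF4E and its binding proteins as 1 complex), both genes of each pair and members at or under 3 reads in a library. Other genes with values in every library (Eif3b, Rptor, Eif2ak3, Eif4b and Eif4enif1) were chosen after their values were seen. Members and lists were chosen with earlier results of these data known.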

Additional observations from a re-analysis of the deposited data

Results flagged for a closer look

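In each sex, the highest and the lowest of the 4 libraries were compared with the nearest other library by Dixon's criterion, and 9 of 118 such tests over the 59 members passed it, where chance passes about 5.9. In female replicate 4 this held for Eif3g at 168.6 CPM, Eif3i at 146.2 CPM, Eif3k at 187.2 CPM and Eif5a at 589.1 CPM, each the highest of the females. The 3 eIF3 subunits among them were at 103 to 125 CPM in the other females. In female replicate 3, Eif1a at 102.9 CPM, Eif4e3 at 48.1 CPM and Eif4enif1 at 8.75 CPM were the lowest of the females. Eif4g3 at 82.5 CPM was the lowest female value in female replicate 1, where the other females were at 137 to 145 CPM. Among males, Eif4h at 471.6 CPM in male replicate 2 was the highest, where the others were at 445 to 446 CPM. Neither Eif4g2 nor Eif2ak3, with the widest spreads of log2 levels in females, passed the criterion.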

How the results depend on the processing

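No member was called at an adjusted p of 0.05 in any fit except without female replicate 1, which called Eif4g3, where 0.668% of all genes passed against 0.0879% with all libraries, so that the count ran from 0 to 1 over the 8 fits that left out a library. The count at an unadjusted p under 0.05, 2 with all libraries, ran from 2 to 8 over those fits, where 4.66% to 11.4% of all genes were at this p. It was 5 after removal of the length trend (Eif1a, Eif2c2, Eif4e3, Eif4g3 and Eif5a) and 0 with the glial score. With a fold over 1.5 as well, the count was 1 with all libraries and ran from 1 to 3 with a library left out. It was 0 with the glial score and 2 with library size alone. The shares of all genes under this fold rule are given above for all libraries only, so these counts have no background here. For the 4 pathway lists, where 4 genes were at an unadjusted p under 0.05, the count was 8 after removal of the length trend, 1 with the glial score, 7 with the replicate block and 2 to 11 with a library left out. The share of all genes at this p was 7.11% with all libraries, 10.8% after removal of the length trend, 2.11% with the glial score and 6.97% with the block, and 11.4% without female replicate 4, where the 11 list genes were counted. The cause was not tested. Log2 fold changes turned sign in at least 1 alternative for 28 of the 59 members, none over 0.303 in size with all libraries, and did so for 14 without female replicate 4, 11 with the glial score and 10 after removal of the length trend. Among them were those of Eif2ak3 (-0.0277 with limma-voom, and -0.0194 without female replicate 3 to 0.595 without female replicate 4) and Eif4b (-0.329 to 0.0237, the latter without female replicate 4). The female minus male log2 ratios that turned were those of Eif4a2 to Eif4a1 (-0.027 to 0.111 over the fits that left out a library) and of Eif5a2 to Eif5a (-0.213 to 0.184), which turned without female replicate 4. Deviations of same-numbered libraries correlated at 0.0939, -0.109, 0.144 and 0.00476. The male with the highest correlation had the same number for female replicates 1 and 4 and another number for 2 and 3. Whether same-numbered libraries shared a batch was not tested. With the block 2 members were at an unadjusted p under 0.05 and 0 called, while the exact p of the Eif4ebp2 to Eif4ebp1 ratio went from 0.0286 to 0.125, the smallest that 4 pairs can give. At this depth the members with few reads, Eif2c4 and Eif4ebp3, have standard errors of 0.45 and 0.39 log2 units.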
